A study of Mus musculus with 15 samples.

Results

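The 44 genes described here encode the Polycomb repressive complexes, the trithorax methyltransferases that oppose them, the DNA methylation and demethylation enzymes, and exchangeable subunits of the BAF chromatin remodeler. They were chosen by symbol, and all 44 were found among the 24346 genes of the deposited expression table. By role they comprised 10 PRC2 genes, 15 PRC1 genes, 2 histone demethylases, 4 trithorax methyltransferases, 4 DNA methylation genes, 3 TET genes and 6 BAF genes. The study sequenced total RNA from brain cells of C57BL/6 mice in 5 groups of 3 libraries each. The groups were astrocytes before induction (D0), cells labelled chemical-induced neurons at day 4 (D4), day 8 (D8) or day 16 (D16), and primary neurons (PN) as a further group. The sample labels give no chemicals, brain region, animal age or sex, and do not say whether the 3 libraries of a group came from separate cultures. P-values therefore measure only the spread between these libraries, which may be technical.

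Polycomb genes keep developmental regulators silent. PRC2 methylates the tail of histone H3 through its catalytic subunit Ezh2 or the paralog Ezh1, and PRC1 ubiquitinates another core histone and compacts chromatin through Cbx and Phc subunits. Kdm6a and Kdm6b remove the PRC2 mark, and the Kmt2 enzymes place an activating methyl mark. Dnmt1 with its partner Uhrf1 copies DNA methylation after replication, Dnmt3a and Dnmt3b add it anew, and TET enzymes oxidize it. BAF complexes exchange subunits when neural progenitors leave the cell cycle. Actl6a (BAF53a) and Ss18 give way to Actl6b (BAF53b), Dpf1, Dpf3 and Ss18l1 (CREST) in neurons.

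Values are in FPKM, a unit scaled to gene length and library size, so that levels of different genes can be set side by side. Changes are differences in log2(FPKM + 1) with their standard error from limma, fitted to all 15 libraries, and are smaller than the true change where values are low. Calls required a log2 change of 1 or more in either direction together with a Benjamini-Hochberg adjusted p under 0.05 over 13983 genes. Of the 44 genes, 43 reached 1 FPKM in at least 3 libraries and were tested. Dnmt3b did not, at 0.0325 to 0.954 FPKM over the 15 libraries. Read counts were not used here. The low FPKM steps placed the depth of the libraries at 0.71 to 2.04 times that of D0 replicate 1, and the absolute depth is unknown. These ratios are rough, because the most frequent ratio held only 8.33% to 17.9% of the low values of each other library. FPKM totals ran from 548309 in PN replicate 1 to 787080 in D8 replicate 2.

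The 10 astrocyte markers summed to 856 to 1904 FPKM at D0, 455 to 524 at D4, 89.6 to 108 at D8, 42.9 to 48.9 at D16 and 145 to 257 in PN. The 10 neuron markers summed to 285 to 397 FPKM at D0, 1029 to 1075 at D16 and 3258 to 4534 in PN. The D0 libraries also held fibroblast and mural markers (2286 to 8521 FPKM over 10 genes), ependymal markers (107 to 218 over 6) and oligodendrocyte lineage markers (327 to 524 over 10), which were at 64.4 to 124, 3.48 to 6.08 and 21.8 to 28.6 FPKM at D16 and at 45.3 to 129, 19.6 to 23.2 and 30.1 to 55.7 FPKM in PN. Microglia markers summed to at most 30.1 FPKM over 10 genes in any library, and endothelial markers to at most 11.6 FPKM over 6. Their part in the results below was not tested. In such bulk samples, fewer cells of a type and less RNA per cell cannot be told apart.

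Of the 43 tested genes, 22 were called in at least 1 of 7 comparisons and 21 in none. The matching share of all tested genes is not given here, so 22 cannot be read as many or few. At D4 compared with D0, 4 of the 43 tested genes were higher and 7 lower, which is 9.3% and 16.3%, against 13.6% and 14.2% of all tested genes. At D8 compared with D0, 3 of the 43 tested genes were higher and 6 lower, which is 6.98% and 13.95%, against 15.5% and 16.9% of all tested genes. At D16 compared with D0, 3 of the 43 tested genes were higher and 6 lower, which is 6.98% and 13.95%, against 16.6% and 18.7% of all tested genes. In PN compared with D0, 9 of the 43 tested genes were higher and 8 lower, which is 20.9% and 18.6%, against 17.1% and 23.9% of all tested genes. At D16 compared with PN, 4 of the 43 tested genes were higher and 8 lower, which is 9.3% and 18.6%, against 19.6% and 15% of all tested genes. These shares lay below those of all genes except for the lower genes at D4, the higher genes in PN and the genes lower at D16 than in PN. The latter counts both include Tet1, which passed the filter only through its PN libraries. All 3 D16 libraries stood above all 3 D0 libraries in 18 of the 43 genes and below them in 12, where the shares over all genes were 32.97% and 33.8%. The median log2 change of the 43 genes was 0.16 at D16 and 0.29 in PN relative to D0, beside medians of -0.01 and -0.12 over all tested genes. The D16 and PN comparisons share the D0 libraries.

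Several counts rested on single libraries. The higher count at D4 was 2 without D0 replicate 3, that at D8 was 5 without D8 replicate 2, and that at D16 was 6 without D16 replicate 2. The 3 genes added at D16 were Jarid2, Pcgf1 and Cbx8, with log2 changes of 1.04, 1.02 and 1.02 there. Counted by adjusted p alone, 10 genes were higher and 13 lower at D4 (26.4% and 27.8% of all tested genes), 9 genes were higher and 14 lower at D8 (29.6% and 30.0% of all tested genes), 16 genes were higher and 12 lower at D16 (30.6% and 32.2% of all tested genes) and 14 genes were higher and 10 lower in PN (28% and 36.8% of all tested genes) relative to D0. For D16 relative to PN, 6 genes were higher and 11 lower at D16 (33.9% and 28.2% of all tested genes).

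**Figure D1:**
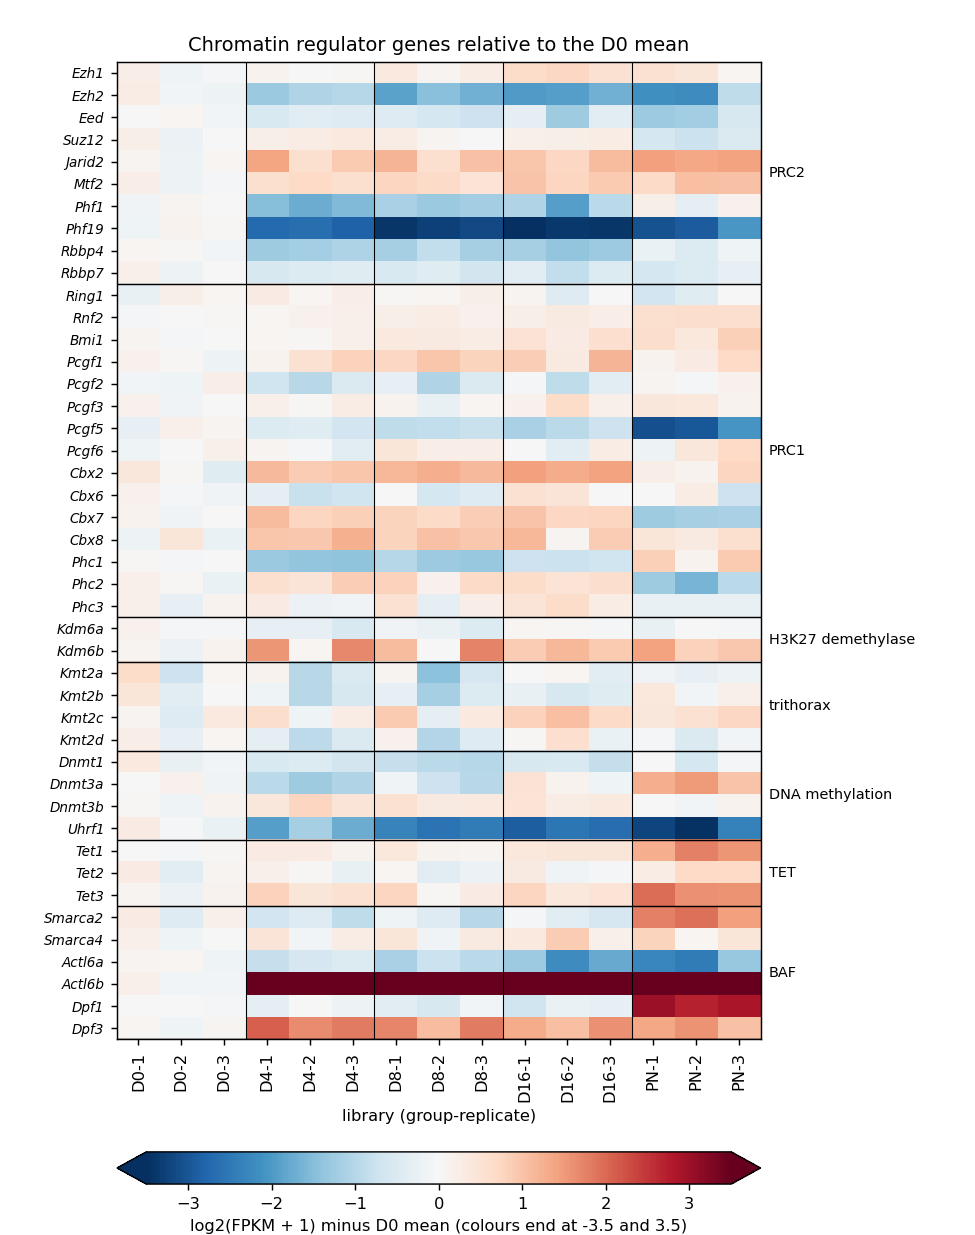
Heat map of the 44 genes (rows, by complex) in the 15 libraries (columns), coloured by log2(FPKM + 1) minus the D0 mean of the gene. Phf19, Uhrf1 and Ezh2 are blue in all induced and PN libraries, Actl6b is dark red in all of them, and Dpf1, Smarca2, Tet1 and Tet3 are red in the PN libraries.

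Among the PRC2 genes, the catalytic subunit Ezh2 and the accessory subunit Phf19 fell, while the paralog Ezh1 was not called. Ezh2 had 44.8, 34.2 and 32.9 FPKM at D0, 14.5, 17.3 and 17.9 at D4, 9.46, 12.8 and 10.8 at D8, 8.62, 9.01 and 10.8 at D16 and 7.63, 7.31 and 19.5 in PN. All induced and PN libraries lay below all D0 libraries, and PN replicate 3 stood above the other two PN libraries. Ezh2 (chromosome 6, 47530139 to 47595341, GRCm38) fell by 1.12 ± 0.27 at D4, by 1.67 ± 0.27 at D8 and by 1.86 ± 0.27 at D16 relative to D0 (adjusted p = 0.0028, 8.4e-05 and 2.6e-05). The D4 call was lost without D0 replicate 1 (-0.98) and under quantile normalization (-0.97). In PN it was lower than at D0 (-1.74 ± 0.27, adjusted p = 3.8e-05), and D16 and PN differed by -0.12 (95% interval -0.70 to 0.45).

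Ezh1 had 5.64, 4.06 and 4.43 FPKM at D0, 5.17, 4.59 and 4.85 at D4, 6.18, 5.08 and 5.73 at D8, 7.94, 8.37 and 7.29 at D16 and 7.28, 6.57 and 4.93 in PN. The D16 libraries lay above all D0 libraries, but the difference of 0.64 ± 0.16 was under the minimum change (adjusted p = 0.0028). The log2 ratio of Ezh1 to Ezh2, from log2(FPKM + 1), was -0.24 ± 0.24 at D16 and -2.74 ± 0.09 at D0 (SD, n = 3 each). The groups did not overlap, and the exact two-sided permutation test gave p = 0.1, the smallest that 3 against 3 libraries allow. In PN the ratio was -0.66 ± 0.98, which overlapped D16 (difference of D16 and PN 0.42, exact permutation p = 0.8), and this difference was -0.14 without PN replicate 3.

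Phf19 had 9.33, 11.5 and 10.9 FPKM at D0, 0.737, 0.86 and 0.634 at D4, 0.0963, 0.191 and 0.282 at D8, 0.025, 0.114 and 0.1 at D16 and 0.409, 0.527 and 1.82 in PN. Phf19, which recruits PRC2 to chromatin, had the largest fall among the 43 genes at D4, D8 and D16, with changes of -2.73 ± 0.21, -3.28 ± 0.21 and -3.42 ± 0.21 relative to D0 (adjusted p = 1e-07, 8.6e-09 and 4.7e-09). No induced or PN library reached the lowest D0 library, and PN changed by -2.66 ± 0.21 (adjusted p = 3.4e-08). Outside D0, Phf19 reached 1 FPKM only in PN replicate 3, so it passed the filter through D0, where it was highest. All D16 libraries lay below all PN libraries, by a change under the minimum (-0.76, adjusted p = 0.0064). That difference was called at a pseudocount of 0.1 (-2.28) and under quantile normalization (-1.01). The accessory subunit Phf1 fell at the 3 induced stages and was not called in PN relative to D0. Phf1 had 8.87, 10.6 and 9.98 FPKM at D0, 2.85, 2.23 and 2.7 at D4, 3.92, 3.41 and 3.67 at D8, 4.22, 1.82 and 4.65 at D16 and 11.4, 7.72 and 11 in PN. It was lower at D16 than in PN (log2 change -1.32 ± 0.23, adjusted p = 0.00014), and in PN it overlapped D0 (0.01 ± 0.23, adjusted p = 0.97). The D16 fall relative to D0 (-1.31 ± 0.23) missed the minimum without D16 replicate 2 (-0.99), and the D16 to PN call was lost without both that library and PN replicate 3 (-0.94).

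Rbbp4 had 83.3, 81.4 and 73.96 FPKM at D0, 33.1, 34.2 and 37.4 at D4, 34.9, 43.6 and 34.9 at D8, 34.8, 29.7 and 32.5 at D16 and 66.9, 56.4 and 71.2 in PN. Rbbp4, a histone-binding subunit shared with other complexes, fell at all 3 induced stages (-1.27 ± 0.13 at D16, adjusted p = 9.6e-07) and was not called in PN (-0.30 ± 0.13, adjusted p = 0.064). D16 relative to PN stood at -0.98, and passed the minimum without D16 replicate 1 (-1.03) or PN replicate 2 (-1.07). Its D8 call (-1.06 ± 0.13) was lost under quantile normalization (-0.94). Eed had 24.8, 25.6 and 22.8 FPKM at D0, 16.5, 18.8 and 17.6 at D4, 17.5, 15.5 and 14.3 at D8, 19.5, 9.77 and 18.3 at D16 and 9.54, 9.86 and 16.2 in PN. Eed, the subunit that reads the PRC2 mark, was called lower in PN alone (-1.02 ± 0.23, adjusted p = 0.001), a call lost in 6 of the other settings, among them without PN replicate 1 (-0.89), PN replicate 2 (-0.92) and D0 replicate 2 (-0.99). D16 and PN differed in Eed by 0.37 (95% interval -0.11 to 0.86).

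Jarid2 had 2.95, 2.26 and 2.83 FPKM at D0, 8.48, 4.4 and 5.9 at D4, 7.35, 4.37 and 6.5 at D8, 6.18, 5.09 and 6.97 at D16 and 9.0, 8.46 and 8.69 in PN. Jarid2, a DNA-binding subunit of PRC2, was above every D0 library in all other groups. Its rise was called in PN (1.4 ± 0.21, adjusted p = 2.7e-05), and at D16 the change was 0.94 ± 0.21 (adjusted p = 0.0012), just under the minimum. Mtf2, which binds CpG islands, averaged 9.01 ± 0.807 FPKM at D16, 9.28 ± 1.49 in PN and 4.44 ± 0.804 at D0, with changes of 0.89 and 0.92. The scaffold gene Suz12 averaged 22.7 ± 0.87 FPKM at D16, 12.2 ± 1.03 in PN and 19.5 ± 2.96 at D0. Rbbp7 averaged 109 ± 18.7, 115 ± 13.3 and 160.3 ± 20.97 FPKM in the same groups. None of these 3 was called in any comparison when limma was fitted to all libraries. At D16 relative to D0, 2 of them had an unadjusted p below 0.05, beside 66.0% of all tested genes. In PN all 3 did, and the share of all tested genes is not given there. Mtf2 was called higher in PN than at D0 under equal totals (1.05), quantile normalization (1.04), a pseudocount of 0.1 (1.05), and without D0 replicate 1 (1.03) or PN replicate 1 (1.04). At D16 it was called at a pseudocount of 0.1 (1.02).

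Of the DNA methylation genes, Uhrf1 fell at all induced stages, Dnmt1 was not called with all libraries, and Dnmt3a was higher in PN than at D0 or D16. Uhrf1 had 35.96, 27.6 and 24.6 FPKM at D0, 6.93, 12.5 and 7.96 at D4, 4.9, 3.97 and 4.47 at D8, 3.08, 4.16 and 3.75 at D16 and 2.26, 1.71 and 4.78 in PN. Uhrf1 (chromosome 17, 56303321 to 56323486), which recruits Dnmt1 to newly copied DNA, changed by -1.61 ± 0.26, -2.46 ± 0.26 and -2.69 ± 0.26 at D4, D8 and D16 relative to D0 (adjusted p = 0.00011, 1.2e-06 and 4.2e-07). The change in PN was -3.02 ± 0.26 (adjusted p = 7.2e-08). No library outside D0 reached the D0 range, and D16 and PN overlapped (difference 0.32, 95% interval -0.23 to 0.88).

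Dnmt1 had 33.9, 21.8 and 24.8 FPKM at D0, 17.8, 18.7 and 16.5 at D4, 14.6, 13.1 and 12.7 at D8, 17.7, 17.9 and 14.5 at D16 and 26.7, 16.9 and 25.3 in PN. Dnmt1 lay below all D0 libraries at D4, D8 and D16, with changes of -0.56, -0.92 and -0.64, each under the minimum (adjusted p = 0.019, 0.00055 and 0.0073). The D8 change passed the minimum without D0 replicate 2 (-1.05) and under equal totals (-1.01). The PN libraries overlapped D0 (-0.22 ± 0.18, adjusted p = 0.31). Dnmt3a had 7.37, 8.36 and 6.88 FPKM at D0, 3.43, 2.61 and 3.11 at D4, 6.87, 4.17 and 3.32 at D8, 11.2, 8.34 and 6.6 at D16 and 19.6, 23.1 and 16.1 in PN. It was called lower at D4 (-1.08 ± 0.22, adjusted p = 0.00089, just under the minimum without D4 replicate 2, -1.0). In PN it was higher than at D0 (1.26 ± 0.22, adjusted p = 0.00014). D16 stood below PN (log2 change -1.1 ± 0.22, adjusted p = 6e-04, under the minimum without D16 replicate 3, -0.93, or PN replicate 2, -0.98). The log2 ratio of Dnmt3a to Dnmt1 was -0.89 ± 0.24 at D16, -0.21 ± 0.56 in PN and -1.69 ± 0.39 at D0 (SD, n = 3 each), and both D16 and PN stood clear of D0 (exact permutation p = 0.1 for each, the smallest possible).

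Genes of dividing cells were lower in the same groups as Ezh2, Phf19 and Uhrf1. Of 25 such genes, 21, 23, 22 and 25 were lower at D4, D8, D16 and in PN than at D0 by limma. The shares over all tested genes were 14.2%, 16.9%, 18.7% and 23.9%. The median log2 change of the 25 genes was -4.18 at D16 and -2.73 in PN. The proliferation antigen Mki67 had 0.115, 0.25 and 0.0356 FPKM at D16 and 1.07, 1.57 and 2.92 in PN, against 30.6, 17.02 and 18.2 at D0. The summed level of the 25 genes was 219, 248 and 658 FPKM at D16 and 196, 199.9 and 306 in PN, against 1523, 1345 and 1106 at D0. D16 replicate 3 stood apart from the other D16 libraries in this sum, and its level of Pcna, the replication clamp gene, singled out after its values were seen, was 588 FPKM, against 158 and 173 in the others. PN replicate 3, the PN library with the highest Mki67, also had the highest PN values of Ezh2, Phf19, Uhrf1, Actl6a and Pcgf5. The same library was highest in PN for many other genes of the set. Among them were Actl6b, Bmi1 and Phc1, which had higher means in PN than at D0. The part of dividing cells in the falls was not tested.

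E2F transcription factors drive genes of DNA replication, and their known sites allow a search of the promoters of these genes. RefSeq promoters (GRCm38.p6, 250 bases before to 50 after an annotated start) were matched by symbol for 40 of the 44 genes. They were searched on both strands for the E2F words TTTCCCGC, TTTCGCGC, TTTGGCGC and TTTGCCGC. Words on the 2 strands can overlap. At least 1 word was found in 5 of the 40 genes (Ezh2, Suz12, Phf19, Dnmt1 and Uhrf1), in 2.6% of all 27025 genes with a promoter and in 4.55% of the 10544 among them that were tested here. No word was found for Phf1, Rbbp4 and Actl6a, which were also called lower at D16 than at D0. The stretches around the words are shown because Ezh2, Phf19, Uhrf1 and Dnmt1 had lower means at D16 than at D0, whereas Suz12 had a higher one. They lie at chr17:56304092-56304171 (plus strand), chr2:34914141-34914220 (minus), chr9:20952794-20952873 (minus), chr11:79992856-79992935 (plus) and chr6:47595009-47595038 (minus), and run 5′ to 3′ along the gene with the word, in either orientation, in capitals.
Uhrf1: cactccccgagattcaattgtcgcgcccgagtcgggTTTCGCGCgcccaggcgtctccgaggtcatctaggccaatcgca
Phf19: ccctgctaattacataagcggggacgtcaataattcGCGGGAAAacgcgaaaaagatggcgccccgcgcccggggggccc
Dnmt1: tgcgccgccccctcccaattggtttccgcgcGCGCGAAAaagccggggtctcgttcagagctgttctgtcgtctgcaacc
Suz12: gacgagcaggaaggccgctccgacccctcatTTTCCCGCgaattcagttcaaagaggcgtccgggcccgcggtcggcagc
Ezh2: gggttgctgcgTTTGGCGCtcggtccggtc
The words begin 185, 208, 219 and 219 bases before an annotated start in Uhrf1, Phf19, Dnmt1 and Suz12, and at 3 bases after it in Ezh2. The shown Dnmt1 promoter holds another word, outside the stretch, 33 bases after its start. A match describes the letters and not a bound site.

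Tet1 and Tet3, which oxidize methylated DNA, were higher in PN than at D0 or D16. Tet1 had 0.173, 0.144 and 0.223 FPKM at D0, 0.452, 0.444 and 0.293 at D4, 0.529, 0.277 and 0.251 at D8, 0.511, 0.577 and 0.585 at D16 and 1.87, 3.03 and 2.41 in PN. Tet1 reached 1 FPKM only in PN libraries, so it passed the filter only through the group in which it was highest. Its calls are therefore description and lend no separate support. Tet1 was higher in PN than at D0 by 1.53 ± 0.15 (adjusted p = 3.5e-07) and lower at D16 than in PN by 1.13 ± 0.15 (adjusted p = 1.3e-05). With a pseudocount of 0.1 these differences were 3.16 and -1.92. Tet3 had 2.68, 1.94 and 2.7 FPKM at D0, 4.94, 3.61 and 3.93 at D4, 4.81, 2.5 and 3.19 at D8, 4.75, 3.45 and 3.78 at D16 and 12.2, 9.39 and 9.26 in PN. Every PN library of Tet3 lay above all others, and Tet3 was lower at D16 than in PN (-1.18 ± 0.2, adjusted p = 0.00013) and higher in PN than at D0 (1.71 ± 0.2, adjusted p = 2.1e-06). Tet2 averaged 2.13 ± 0.515 FPKM at D16, 3.45 ± 0.755 in PN and 2.07 ± 0.678 at D0, and was not called.

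**Figure D2:**
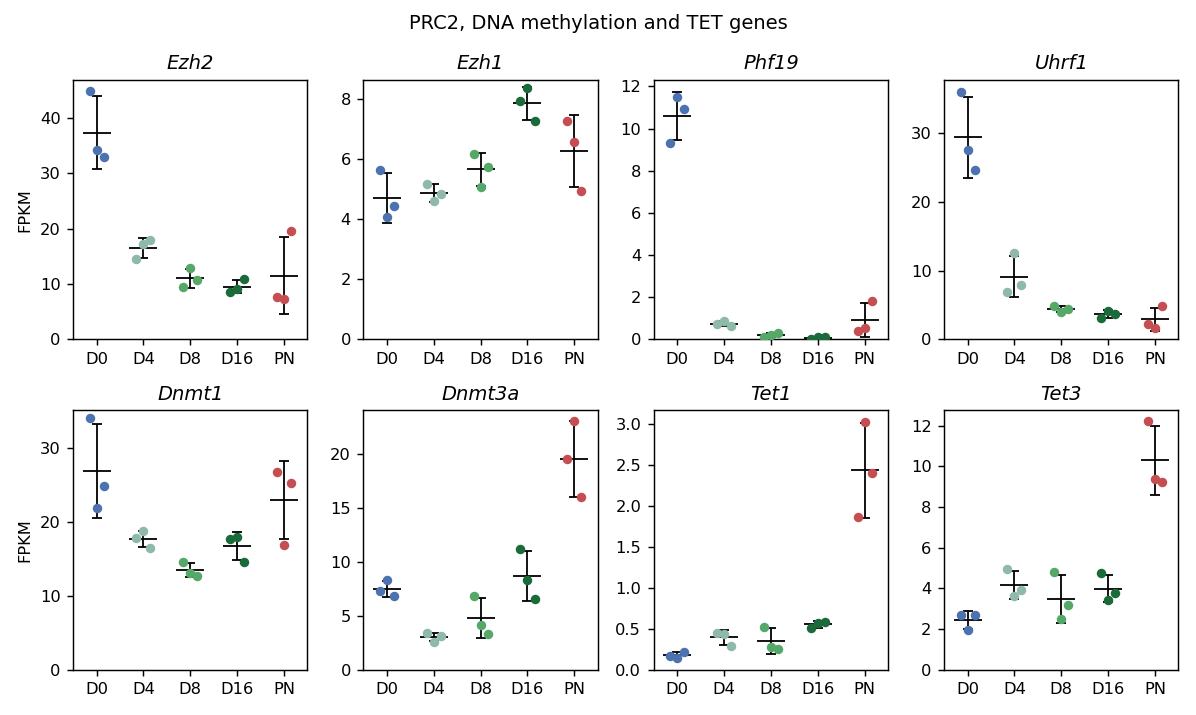
FPKM (y axis, linear from 0) of 8 genes in each library (points) by group (x axis), with the mean and SD (bars, n = 3). Ezh2, Phf19 and Uhrf1 are lower in all groups than at D0, and Dnmt3a, Tet1 and Tet3 are highest in PN.

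The PRC1 catalytic pair and 5 of the 6 Pcgf-family genes were not called, whereas Cbx7, Cbx2, Phc1 and Phc2 differed between D16 and PN. Cbx7 had 2.69, 2.15 and 2.39 FPKM at D0, 6.26, 4.71 and 5.03 at D4, 4.87, 4.46 and 5.23 at D8, 5.74, 4.57 and 4.69 at D16 and 0.434, 0.52 and 0.564 in PN. Every induced library was above D0 and every PN library was below it. Cbx7, a subunit that binds the PRC2 mark, was higher at D16 than in PN by 1.99 ± 0.15 (adjusted p = 3.2e-08). It was lower in PN than at D0 (-1.18 ± 0.15, adjusted p = 5e-06, lost under quantile normalization, -0.93), and the D16 change from D0 was 0.81 ± 0.15 (adjusted p = 0.00024), under the minimum.

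Phc2 had 97.01, 89.4 and 73.5 FPKM at D0, 127, 117 and 157 at D4, 152, 95.2 and 139 at D8, 134, 119.5 and 133 at D16 and 35.5, 26.9 and 44.1 in PN. Phc2, a subunit that polymerizes PRC1, had the same order of D16, D0 and PN, with D16 above PN by 1.86 ± 0.2 (adjusted p = 1.4e-06) and PN below D0 by 1.28 ± 0.2 (adjusted p = 4.3e-05). Phc1 had 11.7, 11.1 and 11.6 FPKM at D0, 4.07, 3.8 and 3.71 at D4, 5.21, 4.2 and 3.94 at D8, 6.58, 6.38 and 6.64 at D16 and 21.4, 12.6 and 22.7 in PN. Its paralog Phc1 had the opposite order of these groups, lower at D16 than in PN by 1.36 ± 0.18 (adjusted p = 1.3e-05). Phc1 fell at D4 and D8 relative to D0 (-1.36 ± 0.18 and -1.2 ± 0.18, adjusted p = 2e-05 and 4.9e-05), and at D16 the change was -0.73 ± 0.18 (adjusted p = 0.0029).

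Cbx2 had 2.09, 1.42 and 0.766 FPKM at D0, 4.14, 3.41 and 3.63 at D4, 4.24, 4.69 and 4.2 at D8, 5.35, 4.8 and 5.22 at D16 and 1.76, 1.57 and 2.94 in PN. Cbx2, a Cbx protein that compacts chromatin, was higher at D8 and D16 than at D0 (1.19 ± 0.2 and 1.37 ± 0.2, adjusted p = 0.00015 and 3.2e-05). The D8 call was lost without D0 replicate 3 (0.98), and D4 stood at 1.0 ± 0.2, at the edge of the minimum. D16 exceeded PN by 1.01 ± 0.2 (adjusted p = 0.00053), a call lost under equal totals (0.93), quantile normalization (0.72) and without D16 replicate 1 (0.98), D16 replicate 3 (1.0), PN replicate 1 (0.94) or PN replicate 2 (0.89). The log2 ratio of Cbx7 to Cbx2 was -0.03 ± 0.11 at D16, -1.01 ± 0.29 in PN and 0.53 ± 0.36 at D0 (SD, n = 3 each), with no overlap between any 2 of these groups (exact permutation p = 0.1 each, the smallest possible).

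Pcgf5 had 13.5, 19.14 and 17.9 FPKM at D0, 11.7, 12.2 and 10.03 at D4, 8.48, 8.81 and 9.26 at D8, 6.99, 8.11 and 9.62 at D16 and 1.11, 1.25 and 3.19 in PN. Pcgf5, which marks a variant PRC1 without Cbx subunits, was lower in PN than at D0 (-2.71 ± 0.23, adjusted p = 5.2e-08), and D16 stood above PN by 1.76 ± 0.23 (adjusted p = 8.1e-06). The D16 change from D0 was -0.94 ± 0.23 (adjusted p = 0.0021), with all D16 libraries below D0, and it passed the minimum without D0 replicate 1 (-1.09) or D16 replicate 3 (-1.05). Cbx8 had 7.27, 11.4 and 6.89 FPKM at D0, 17.1, 16.9 and 21.04 at D4, 15.01, 17.8 and 16.9 at D8, 19.8, 8.87 and 16.2 at D16 and 11.6, 10.5 and 12.8 in PN. Cbx8 was called higher at D4 alone (1.05 ± 0.24, adjusted p = 0.0017), a call lost without D0 replicate 1 (0.96), D0 replicate 3 (0.93) or D4 replicate 3 (0.95), and the D16 libraries overlapped D0.

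The other 9 PRC1 genes were not called in any comparison with limma. At D16 relative to D0, 3 of them had an unadjusted p below 0.05, beside 66.0% of all tested genes. The ubiquitin ligases Ring1 and Rnf2 averaged 11.5 ± 2.42 and 26.7 ± 1.08 FPKM at D16, 9.62 ± 2.61 and 33.9 ± 0.483 in PN, and 12.4 ± 2.17 and 22.2 ± 0.75 at D0. Bmi1, a Pcgf-family partner known for repressing Cdkn2a, averaged 20.9 ± 2.44 FPKM at D16, 23.4 ± 3.97 in PN and 14.8 ± 0.929 at D0 (changes from D0 of 0.46 and 0.61, adjusted p = 0.0091 and 0.0013). Pcgf1 averaged 15.5 ± 4.82 at D16 and 8.36 ± 1.1 at D0. The means of Pcgf2, Pcgf3 and Pcgf6 were 8.07, 24.9 and 7.03 FPKM at D16, 11.5, 24.2 and 9.27 in PN, and 11.03, 19.6 and 7.12 at D0. Cbx6, the most abundant Cbx gene of the 4 listed, averaged 57.2 ± 10.8 FPKM at D16, 41.98 ± 13.9 in PN and 44.96 ± 4.32 at D0, and Phc3 9.91 ± 1.48, 5.66 ± 0.0516 and 7.03 ± 1.32.

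**Figure D3:**
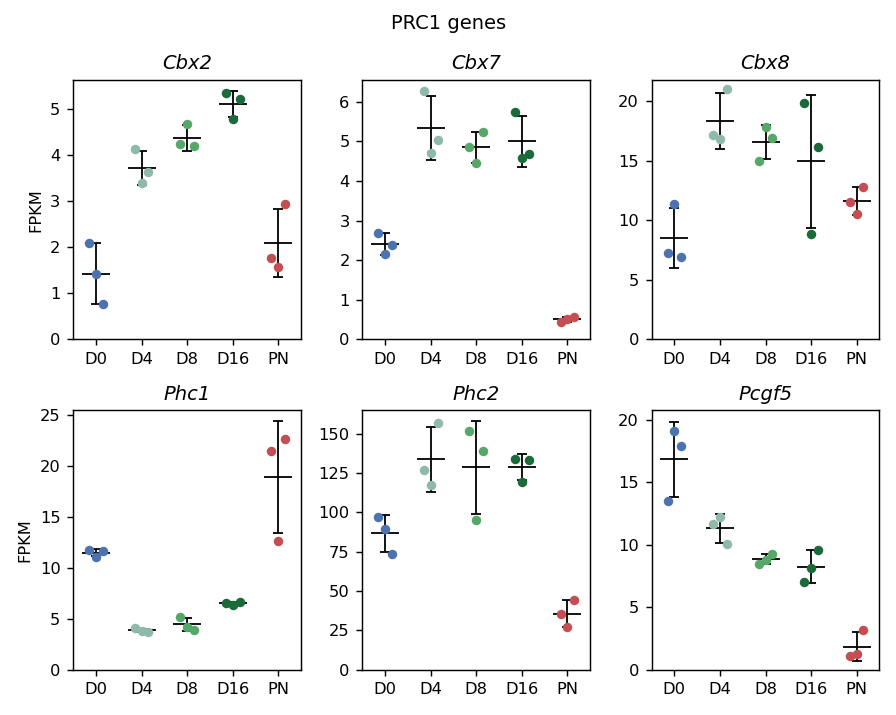
FPKM (y axis, linear from 0) of 6 PRC1 genes in each library (points) by group (x axis), with the mean and SD (bars, n = 3). Cbx7, Phc2 and Pcgf5 are lowest in PN, Phc1 is lowest in the induced groups, and Cbx2 is highest at D16.

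The trithorax genes Kmt2a to Kmt2d were not called in any comparison when limma was fitted to all libraries. At D16 relative to D0, 1 of the 4 had an unadjusted p below 0.05, beside 66.0% of all tested genes. Kmt2a, required for Hox gene expression in mammals, averaged 5.48 ± 1.04 FPKM at D16, 5.02 ± 0.351 in PN and 6.44 ± 3.28 at D0. Kmt2a had 9.78, 3.22 and 6.32 FPKM at D0, 6.5, 2.53 and 3.87 at D4, 6.44, 1.54 and 3.57 at D8, 5.87, 6.26 and 4.3 at D16 and 5.31, 4.63 and 5.13 in PN. Replicate 2 was the lowest library of Kmt2a in D0, D4 and D8, and the same held for Kmt2b, Kmt2c and Kmt2d. These genes have long transcripts (longest annotated coding transcript 8469 to 19823 bases). Over 761 other tested genes with a transcript of at least 8000 bases, the median deviation from the group mean was -0.22, -0.13 and -0.27 log2 in replicate 2 of D0, D4 and D8, against -0.06, -0.05 and -0.05 over all tested genes. It was above 0 in D4 replicate 1 (0.18), D8 replicate 1 (0.27) and D16 replicate 2 (0.13), against 0.02, 0.03 and -0.05 over all tested genes. Phc3, Dnmt3a, Tet1, Tet2 and Tet3 also have transcripts of this length (9179 to 14369 bases). The part of transcript length in the changes of any gene was not tested. Kmt2a was called lower at D8 than at D0 without D0 replicate 2 (-1.01) or D8 replicate 1 (-1.02), against -0.65 with all libraries. Kmt2c was called higher at D16 than at D0 without D0 replicate 3 (1.02) and at a pseudocount of 0.1 (1.09), against 0.84. The mean deviation of the 4 Kmt2 genes in replicate 2 of D0, D4 and D8 was -0.47, -0.41 and -0.63. Kmt2b averaged 4.38 ± 0.593 FPKM at D16, 7.0 ± 1.29 in PN and 6.33 ± 2.06 at D0, Kmt2c 4.81 ± 0.76, 3.74 ± 0.536 and 2.31 ± 0.899, and Kmt2d 3.43 ± 1.32, 2.41 ± 0.559 and 2.98 ± 0.732.

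Kdm6b had 6.07, 4.66 and 6.15 FPKM at D0, 18.1, 5.91 and 20.3 at D4, 13.2, 5.56 and 21.1 at D8, 11.2, 13.9 and 11.4 at D16 and 16.6, 10.5 and 11.7 in PN. Kdm6b, an inducible eraser of the PRC2 mark, showed the same low replicate 2 at D4 and D8. It was called higher at D4 (1.1 ± 0.41, adjusted p = 0.034) and in PN (1.05 ± 0.41, adjusted p = 0.035). Without replicate 2 of D0, D4 and D8 the changes were 1.51 at D4, 1.32 at D8 and 0.94 in PN. The D4 call was lost without any 1 of the D0 libraries, D4 replicate 1 or D4 replicate 3, and with no filter (log2 changes without a library 0.8 to 1.16), and the PN call without any 1 of the D0 libraries, PN replicate 1 or PN replicate 3, and with no filter (without a library 0.87 to 1.11). Kdm6a, the X-linked paralog, averaged 5.42 ± 0.248 FPKM at D16, 4.97 ± 0.608 in PN and 5.36 ± 0.578 at D0, and was not called.

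Actl6b had the largest rise of the 43 genes at D4, D8, D16 and in PN, while Dpf1 and Smarca2 were called higher in PN and not at D16. Actl6b had 0.202, 0 and 0 FPKM at D0, 12.3, 19.2 and 14.6 at D4, 28.2, 37.5 and 31.6 at D8, 31.4, 44.7 and 37.03 at D16 and 88, 102 and 116 in PN. Actl6b (chromosome 5, 137553517 to 137569582), the neuronal actin-like subunit, was listed at 0 in D0 replicates 2 and 3 and was above every D0 library in all later groups. It was higher than at D0 by 3.92 ± 0.18 at D4, 4.97 ± 0.18 at D8, 5.17 ± 0.18 at D16 and 6.59 ± 0.18 in PN (adjusted p = 1e-09, 3.5e-11, 2.3e-11 and 1.9e-12). These sizes depend on the pseudocount of 1, and at 0.1 the D16 change was 8.02. The D16 libraries stayed below all PN libraries, by 1.42 ± 0.18 (adjusted p = 9.2e-06).

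Actl6a had 41.6, 41.1 and 34.9 FPKM at D0, 21.8, 25.6 and 27.9 at D4, 17.1, 22.8 and 19.9 at D8, 15.6, 7.74 and 10.8 at D16 and 7.26, 6.31 and 14.9 in PN. Actl6a (chromosome 3, 32706298 to 32726973), the progenitor subunit, fell at D16 (-1.75 ± 0.26, adjusted p = 3.9e-05) and was lower in PN (-2.02 ± 0.26, adjusted p = 6.5e-06) than at D0. The D8 change of -0.95 passed the minimum without D0 replicate 3 (-1.03) or D8 replicate 2 (-1.04). All libraries outside D0 lay below D0, and D16 overlapped PN (difference 0.28, 95% interval -0.29 to 0.84). The log2 ratio of Actl6b to Actl6a was -5.24 ± 0.14 at D0, -0.69 ± 0.26 at D4, 0.68 ± 0.03 at D8, 1.68 ± 0.71 at D16 and 3.37 ± 0.47 in PN (SD, n = 3 each). The ratio was above 0 in every D8, D16 and PN library, and the D16 libraries lay between those of D0 and PN without overlap (exact permutation p = 0.1 for each pair of these groups, the smallest possible).

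Between D4 and D8, Actl6b was the only 1 of the 43 genes called (1.04 ± 0.18 at D8 relative to D4, adjusted p = 0.0048), where 2.01% of all tested genes were called. The call was lost without D4 replicate 1 (0.90) or D8 replicate 2 (0.94). At D16 relative to D8, limma called 0 of the 43 genes and 0.0286% of all tested genes, with 5 of the 43 and 13.1% of all tested genes at an unadjusted p below 0.05.

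REST is a repressor of neuronal genes in cells that are not neurons, and its sites pair 2 half-sites. The half-site words CAGCACC and GGACAGC were searched on both strands of the same RefSeq promoters, and may overlap each other. They were counted at any spacing, order and strand within a promoter, so a promoter with both need not hold a full REST site. Both were found in 1 of the 40 genes with a promoter, Actl6b, in 0.681% of all genes and in 0.882% of the tested ones. They lie just after the annotated start at chr5:137553564-137553593 (plus strand, GRCm38.p6), shown with the words in capitals as their reverse complements because this gene rose most.
Actl6b: ggaGCTGTCCggccgcctcGGTGCTGatcc
The match describes the letters and not a bound site.

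Dpf1 had 6.4, 6.47 and 6.13 FPKM at D0, 4.77, 6.23 and 5.53 at D4, 4.64, 4.02 and 5.91 at D8, 3.53, 5.3 and 4.97 at D16 and 58.6, 46.1 and 52.1 in PN. Dpf1 (chromosome 7, 29303951 to 29318243), a neuronal reader subunit, was higher in PN than at D0 by 2.85 ± 0.17 (adjusted p = 1.3e-09). The D16 libraries lay below all D0 libraries and below all PN libraries, with a change from D0 of -0.40 ± 0.17 (adjusted p = 0.05) and from PN of -3.26 ± 0.17 (adjusted p = 8.5e-10). Dpf3 had 0.553, 0.34 and 0.578 FPKM at D0, 5.3, 3.68 and 4.28 at D4, 3.85, 2.14 and 4.25 at D8, 2.63, 2.08 and 3.54 at D16 and 2.78, 3.44 and 2.05 in PN. Its paralog Dpf3 (chromosome 12, 83213745 to 83487716) rose at D4 (1.86 ± 0.22, adjusted p = 6e-06), D8 (1.54 ± 0.22, adjusted p = 2.7e-05) and D16 (1.32 ± 0.22, adjusted p = 1e-04) and was higher in PN than at D0 (1.32 ± 0.22, adjusted p = 8e-05). D16 and PN overlapped in Dpf3 (95% interval of the difference -0.48 to 0.47). The log2 ratio of Dpf3 to Dpf1 was -0.58 ± 0.39 at D16, -3.84 ± 0.38 in PN and -2.3 ± 0.16 at D0 (SD, n = 3 each), so that D16 and PN lay on opposite sides of D0 without overlap (exact permutation p = 0.1 each, the smallest possible).

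Smarca2 had 26.9, 15.6 and 24.6 FPKM at D0, 13.3, 15.6 and 11.3 at D4, 19.6, 15.6 and 10.6 at D8, 21.3, 16.7 and 14.3 at D16 and 76.9, 85.4 and 61.2 in PN. Smarca2 (chromosome 19, 26605050 to 26778322), a BAF ATPase, was higher in PN than at D0 (1.71 ± 0.24, adjusted p = 1.2e-05) and lower at D16 than in PN (-2.04 ± 0.24, adjusted p = 3e-06). The D16 libraries overlapped D0 (-0.33 ± 0.24, adjusted p = 0.25). Smarca4 had 40.1, 31.6 and 34.9 FPKM at D0, 49.1, 32.9 and 42.2 at D4, 47.6, 32.3 and 44.3 at D8, 44.8, 65.8 and 40.2 at D16 and 61.8, 37.4 and 48 in PN. The other ATPase, Smarca4, was not called in any comparison (D16 relative to D0 0.47 ± 0.22, adjusted p = 0.084). The log2 ratio of Smarca2 to Smarca4 was -1.46 ± 0.44 at D16, 0.61 ± 0.49 in PN and -0.67 ± 0.26 at D0 (SD, n = 3 each), again with D16 and PN on opposite sides of D0 without overlap (exact permutation p = 0.1 each).

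Of 25 further BAF genes, 1 was higher and 2 were lower at D16 than at D0, or 4.0% and 8.0% of the tested ones, against 16.6% and 18.7% of all tested genes. In PN 7 were higher and 2 lower than at D0, or 28% and 8.0% of the tested ones, against 17.1% and 23.9% of all tested genes. The list had median log2 changes of -0.11 at D16 and 0.11 in PN. Bcl11a, a neuronal BAF-associated zinc finger gene, rose at D16 to 7.23, 4.07 and 5.71 FPKM, against 0.579, 0.543 and 1.92 at D0 (1.77 ± 0.24, adjusted p = 1.3e-05), and PN had 91.9, 90.2 and 83.7. Actb and Bcl7c were lower at D16 (-2.05 and -1.34). The exchanged pair Ss18 and Ss18l1 was chosen after its values were seen, and neither was called at D16 relative to D0. Ss18l1 had 6.82, 6.59 and 5.07 FPKM at D16 and 3.5, 1.84 and 3.34 at D0, and reached 37.3, 26.1 and 31.6 in PN (D16 relative to PN -2.18 ± 0.2, adjusted p = 2.2e-07). Ss18 had 34.7, 24.6 and 34.8 FPKM at D16 and 42.5, 35.2 and 45.97 at D0, and 6.66, 6.64 and 10.01 in PN (D16 relative to PN 1.89 ± 0.17, adjusted p = 2.1e-07).

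**Figure D4:**
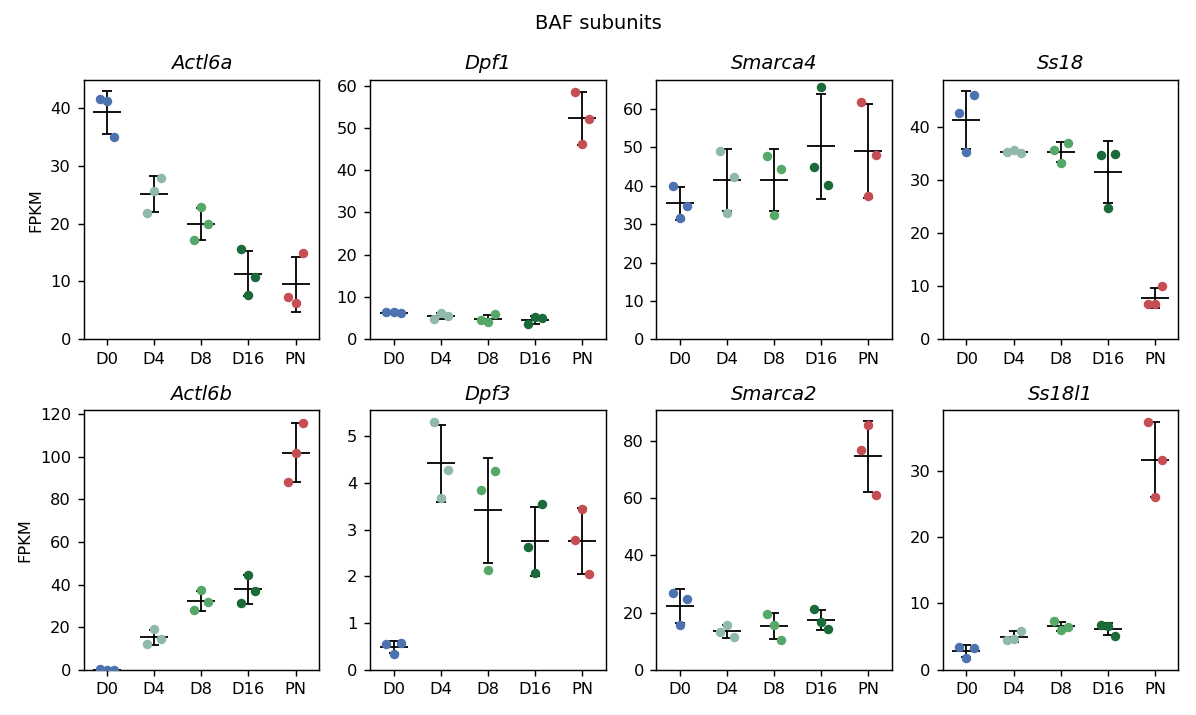
FPKM (y axis, linear from 0) of 8 BAF genes in each library (points) by group (x axis), with the mean and SD (bars, n = 3). Actl6a is lower and Actl6b higher in all groups than at D0, whereas Dpf1, Smarca2 and Ss18l1 are high and Ss18 low in the PN libraries.

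**Figure D5:**
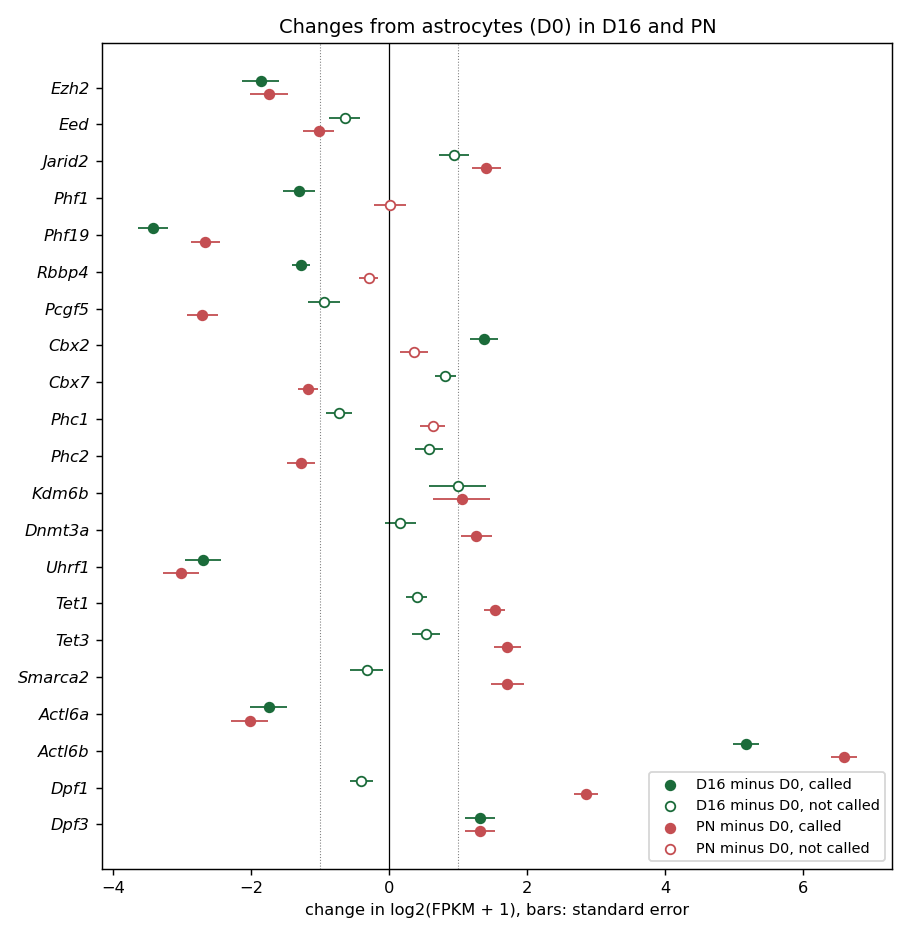
Change in log2(FPKM + 1) from D0 (x axis, with standard error bars) at D16 (green) and in PN (red) for the 21 genes called in at least 1 of D16 against D0, PN against D0 and D16 against PN (rows). Filled points were called and open points were not. Cbx7 and Phc2 lie on opposite sides of 0 in the 2 comparisons, and Dpf1 lies at -0.40 at D16 and 2.85 in PN.

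Few other Polycomb and COMPASS genes were called at D16, beside 16.6% (higher) and 18.7% (lower) of all tested genes. Of 22 further Polycomb genes 21 were tested, with 2 higher and 0 lower at D16 than at D0 by limma. In PN 3 were higher and 3 lower than at D0, beside 17.1% and 23.9% of all tested genes. An unadjusted p below 0.05 was found at D16 for 14 of the 21, beside 66.0% of all tested genes. The D16 rises were Auts2, a variant PRC1 subunit in neurons (14.04 ± 2.47 FPKM at D16, 2.61 ± 1.21 at D0, 2.1 ± 0.32), and Mga, a variant PRC1 transcription factor (1.19 ± 0.23). Of 21 further COMPASS and histone demethylase genes, 1 was higher at D16 (the demethylase gene Kdm1b, 1.22 ± 0.17) and 0 lower, with 7 of 21 at an unadjusted p below 0.05. In PN 2 of these 21 were higher and 0 lower than at D0, beside the same 17.1% and 23.9%.

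Of 22 genes for methylation readers, repair and methyl donors, 20 were tested, with 2 higher and 4 lower at D16 than at D0, or 10% and 20% of the tested ones, against 16.6% and 18.7% of all tested genes. In PN 4 were higher and 7 lower than at D0, or 20% and 35% of the tested ones, against 17.1% and 23.9% of all tested genes. Gadd45a, a stress-induced gene linked to demethylation, rose at D16 to 125, 59.7 and 105 FPKM, against 50.8, 25.7 and 29.2 at D0 (1.43 ± 0.34, adjusted p = 0.002). The remodeler gene Hells, which helps maintain DNA methylation, had 2.24, 2.47 and 2.03 FPKM at D16, against 15.2, 13.2 and 12.6 at D0 (-2.17 ± 0.24, adjusted p = 1.8e-06). Gadd45b (-3.07) and the mitochondrial dehydrogenase Idh2 (-2.97) fell further, and the glycosylase gene Neil1 was also lower (-1.38).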

How the data were processed

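Total RNA was sequenced in paired-end reads of 150 bases, per the labels. A deposited table gave the authors' FPKM per gene and library, with genome build mm10 (GRCm38) per the submitters' processing notes. Neither the aligner nor the quantifier, nor the annotation, is given in the sources used here. Each of the 15 columns was matched to 1 sample by its title. The genes and lists were chosen with earlier results of these data known. Values were transformed as log2(FPKM + 1), genes reaching 1 FPKM in at least 3 libraries were kept (13983), and limma 3.58.1 in R 4.3.3 fitted group means to all libraries with a mean-variance trend (10 residual degrees of freedom), with Benjamini-Hochberg adjustment over the genes of each comparison. The test was checked on simulated data. Paralog ratios were compared by exact two-sided permutation of libraries (20 splits, smallest p 0.1). Gene positions and transcript lengths came from GENCODE release M21 and promoters from RefSeq GRCm38.p6. Genes given per library were those called in any comparison with D0 or between D16 and PN, up to 6 per complex by largest change, plus a fixed panel. From the other lists, up to 3 called genes each way at D16 relative to D0 were named, except 1 that is not reported here.

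Replicate numbers were checked as pairs by the correlation of deviations from group means. Same-number pairs of D4 and D8 correlated at 0.329 to 0.454, which links those libraries. In no other comparison did all 3 pairs exceed 0.1. Other settings tried were equal totals, quantile normalization, a filter at 5 FPKM or none, a pseudocount of 0.1, a fit restricted to the compared groups, a replicate block, no minimum change, each library left out in turn, and 2 sets of libraries left out after seeing the data. Depth was read as the most frequent ratio between libraries of values up to 0.5 FPKM. Other steps ran in Python 3.11.15 (scipy 1.17.1 for permutation tests, matplotlib 3.10.9 for plots).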

Additional observations from a re-analysis of the deposited data

How the results depend on the processing

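Of 59 calls of the 43 genes over 7 comparisons, 45 held in each of the 25 other settings that tested the gene, and 14 were lost in at least 1. No call changed sign in these settings. The setting with no minimum on the change only relaxed the rule, so no call could be lost there. Leaving out a library outside the compared groups left the change itself unaltered, so those settings tested a call little. Leaving out 1 library at a time gave counts of higher genes of 2 to 6 at D4, 2 to 5 at D8, 3 to 6 at D16 and 7 to 9 in PN relative to D0, and 3 to 4 at D16 relative to PN. The counts of lower genes were 6 to 7, 6 to 8, 5 to 7, 7 to 8 and 7 to 9 in the same order. Between D8 and D4 the count of called genes in either direction was 0 to 1. With no minimum on the change, 10, 9, 16 and 14 genes were higher at D4, D8, D16 and in PN relative to D0, and 13, 14 and 12 lower at D4, D8 and D16. A pseudocount of 0.1 gave 7 higher at D4, 9 higher at D16 and 0 called at D8 relative to D4. Quantile normalization gave 5 higher at D8, and equal totals 0 called at D8 relative to D4. A filter at 5 FPKM left 1 higher at D8 and 1 at D16, because Cbx2 and Dpf3 were no longer tested. Leaving out replicate 2 of D0, D4 and D8, chosen after seeing the data, gave 6 higher at D8. Leaving out D16 replicate 2 and PN replicate 3, also chosen after seeing the data, gave 6 higher at D16. With no filter, or with only the compared groups in the fit, some genes had no variance within groups, which limma offset from 0. The replicate block changed no call of these genes, with 3 higher and 6 lower at D16 relative to D0.

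With a pseudocount of 0.1 the D16 minus D0 difference in log2 ratio was 9.85 for Actl6b to Actl6a, 2.74 for Dpf3 to Dpf1, 2.7 for Ezh1 to Ezh2 and -0.85 for Cbx7 to Cbx2, against 6.92, 1.72, 2.5 and -0.56 at 1. Leaving out 1 library gave 6.57 to 7.28, 1.59 to 1.95, 2.43 to 2.64 and -0.69 to -0.35 in the same order, -1.0 to -0.56 for Smarca2 to Smarca4 and 0.61 to 1.0 for Dnmt3a to Dnmt1. The Ezh1 to Ezh2 difference of D16 and PN ranged from -0.14 to 0.73 and changed sign without PN replicate 3 (-0.14, against 0.42). Relative to D0 the median of all genes lay at -0.12 in PN, and at -0.01 with equal totals and 0.00 after quantile normalization. Absolute depth is unknown, so no counting error is given for low values such as those of Phf19, Tet1 and Actl6b at D0.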

Other observations

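Genes that Polycomb or DNA methylation are known to keep silent gave the following values. Of 41 listed Hox, Cdkn2a and Cdkn2b genes, 27 were listed at 0 in all libraries at D0, 1 at D4, 1 at D8, 0 at D16 and 26 in PN. Only 29 of the 41 reached 1 FPKM in 3 libraries, so their count of calls is not given. Cdkn2a, a cell cycle inhibitor locus, had 51.4, 40.2 and 37.1 FPKM at D0, 171, 154 and 156 at D4, 305, 379 and 291 at D8, 434, 176 and 433 at D16 and 0.29, 0.724 and 1.6 in PN. It was higher at D16 than at D0 by 2.89 ± 0.30 (adjusted p = 1e-06) and lower in PN than at D0 by 4.6 ± 0.30 (adjusted p = 3.9e-09).

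Of 18 germline genes kept silent by DNA methylation in somatic cells, 4 reached 1 FPKM in 3 libraries. Their summed level over the 18 was 8.23 to 15.1 FPKM at D0, 20.1 to 22.6 at D4 and 16.8 to 23.1 at D8. It was 16.8 to 21.6 FPKM at D16 and 20.1 to 24.7 in PN. At D4 and D16 limma called 0 of these 4 genes relative to D0, beside 13.6% and 16.6% of all tested genes called higher. At D8 and in PN it called 1 of the 4 higher, beside 15.5% and 17.1% of all tested genes. At D16 an unadjusted p below 0.05 was found for 2 of the 4, beside 66.0% of all tested genes. Uhrf1 and Dnmt1 were at 3.66 and 16.7 FPKM in the same D16 libraries, against 29.4 and 26.8 at D0. They averaged 9.12 and 17.65 FPKM at D4 and 2.92 and 22.9 in PN. Whether these 2 genes have a part in the germline gene levels was not tested.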
